A study of Drosophila melanogaster with 3 samples.

Results

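Genes of glutathione and thiol redox defence were compared between laser-wounded and unwounded embryos of *Drosophila melanogaster*. They were taken by symbol: glutathione transferases of 6 classes, superoxide dismutases, catalase, peroxiredoxins, thioredoxins and their reductases, metallothioneins, both subunits of glutamate-cysteine ligase, the regulators *cnc* and *Keap1*, and single enzymes of peroxide and haem chemistry. Of 66 genes with such a symbol, 42 had a probe assigned to 1 gene, out of 8295 genes on the array, and 41 had a value on every array. The other 24 were not analysed here, among them the NADPH oxidase genes *Duox* and *Nox*, the haem oxygenase gene *Ho*, *Sod1*, *GstS1*, 7 delta and 4 epsilon transferases, *Prx2*, *Prx4* and *Prx5*, and 4 of 5 metallothioneins. The glutathione peroxidase gene *Gtpx*, an older name of which (PHGPx) is in the rule, is not a member under its current name and had a mean log2 ratio of −0.04 ± 0.09 (SD, n = 3).

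Reactive oxygen species are made at wounds, where in fly embryos Duox releases hydrogen peroxide that draws blood cells and starts repair signalling. Superoxide dismutases turn superoxide into hydrogen peroxide, and catalase, peroxiredoxins and glutathione-dependent enzymes remove peroxide. Glutathione transferases join glutathione to reactive molecules, while thioredoxin, kept reduced by thioredoxin reductase, reduces disulfides and supplies peroxiredoxins. In flies, thioredoxin reductase also stands in for glutathione reductase. Many of these genes are induced by Cnc, the fly homologue of Nrf2, which Keap1 holds in check.

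The 3 arrays, named A, B and C, each carried RNA of wounded embryos labelled with Cy5 and of unwounded embryos labelled with Cy3. Both groups were wild type, with no allele or agent named, and wounds were made by laser ablation. Stage of the embryos, time after wounding and whether the arrays stand for separate collections are not given in the labels. The dyes ran the same way on every array, so an effect of dye and one of wounding cannot be told apart. Results are log2 ratios of the colours. A high ratio is likely higher in wounded embryos, since the series names them first and Cy5 is usually the numerator. Titles of the samples have the opposite order, so the direction is not settled. Were it reversed, each high ratio below would be a low one and each low ratio a high one. A ratio over RNA of embryos also leaves fewer cells of a type and less RNA per cell impossible to tell apart. The array gives ratios and no levels, so abundance and the labelled tissue could not be checked against marker levels.

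Ratios of 2 members passed the test, in opposite directions. *GstE14*, also called noppera-bo, is a transferase needed for making the moulting hormone ecdysone, and it had a high ratio. *dhd* (deadhead), the thioredoxin of the egg that acts on sperm chromatin at fertilisation, had a low ratio. They made up 2 of 41 gene means, 1 high and 1 low, where 1.96% of all 8247 tested genes passed (limma, Benjamini-Hochberg adjusted p under 0.05, 0.497% high and 1.47% low). Over single probes they were 2 of 45, where 1.55% of 11887 probes passed. At an unadjusted p under 0.05 the count was 9 of 41 gene means (22%, beside 18.4% of all genes). Of these, 7 were low (17.1%, beside 9.65% of all genes) and 2 high (4.88%, beside 8.75%).

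*GstE14* had log2 ratios of 0.46 (A), 0.63 (B) and 0.43 (C). Every array lay on the high side, and 35 of 8247 genes had a higher mean. The mean was 0.50 ± 0.11 (SD, n = 3), a ratio of 1.42 with a 95% interval of 1.27 to 1.58 (limma adjusted p = 0.0359 over gene means and 0.0441 over probes). Its probe, RH27559, comes from the RH clone library, whose 1064 probes had a median of 0.08 and held 22 high and 2 low calls. With each library centred on each array, *GstE14* stayed at 0.43 and no longer passed (limma adjusted p = 0.0538), in a fit where 0 of all 8247 genes passed.

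*dhd* had log2 ratios of −0.36, −0.40 and −0.34 on arrays A, B and C. These values lay close together, and 232 genes had a lower mean. The mean was −0.37 ± 0.03 (SD, n = 3), a ratio of 0.774 with a 95% interval of 0.705 to 0.848 (limma adjusted p = 0.0430 over gene means and 0.0495 over probes). *dhd* stayed at −0.36 with each library centred on each array and no longer passed (limma adjusted p = 0.0595). In that fit 0 of all 8247 genes passed. Maternal and early embryonic transcripts were measured for 4 of 6 listed genes, with a median of −0.20. *gnu*, which drives the first nuclear cycles and is another maternal gene, was at −0.72 (limma adjusted p = 0.0359), *osk* at −0.25, *png* at −0.15 and *bcd* at 0.37, and these last 3 did not pass. The part of such transcripts in the ratio of *dhd* was not tested. Of 119 control spots that carry plant genes, 41 had a mean below that of *dhd* and 0 above that of *GstE14*, and their part was not tested either. With array A, B or C left out, adjusted p was 0.188, 0.0824 and 0.0714 for *GstE14* and 0.222, 0.0901 and 0.0982 for *dhd* (limma, gene means). With 2 arrays 0 of all 8247 genes passed in each of these fits, so the lost calls are not particular to this pair.

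**Figure D1:**
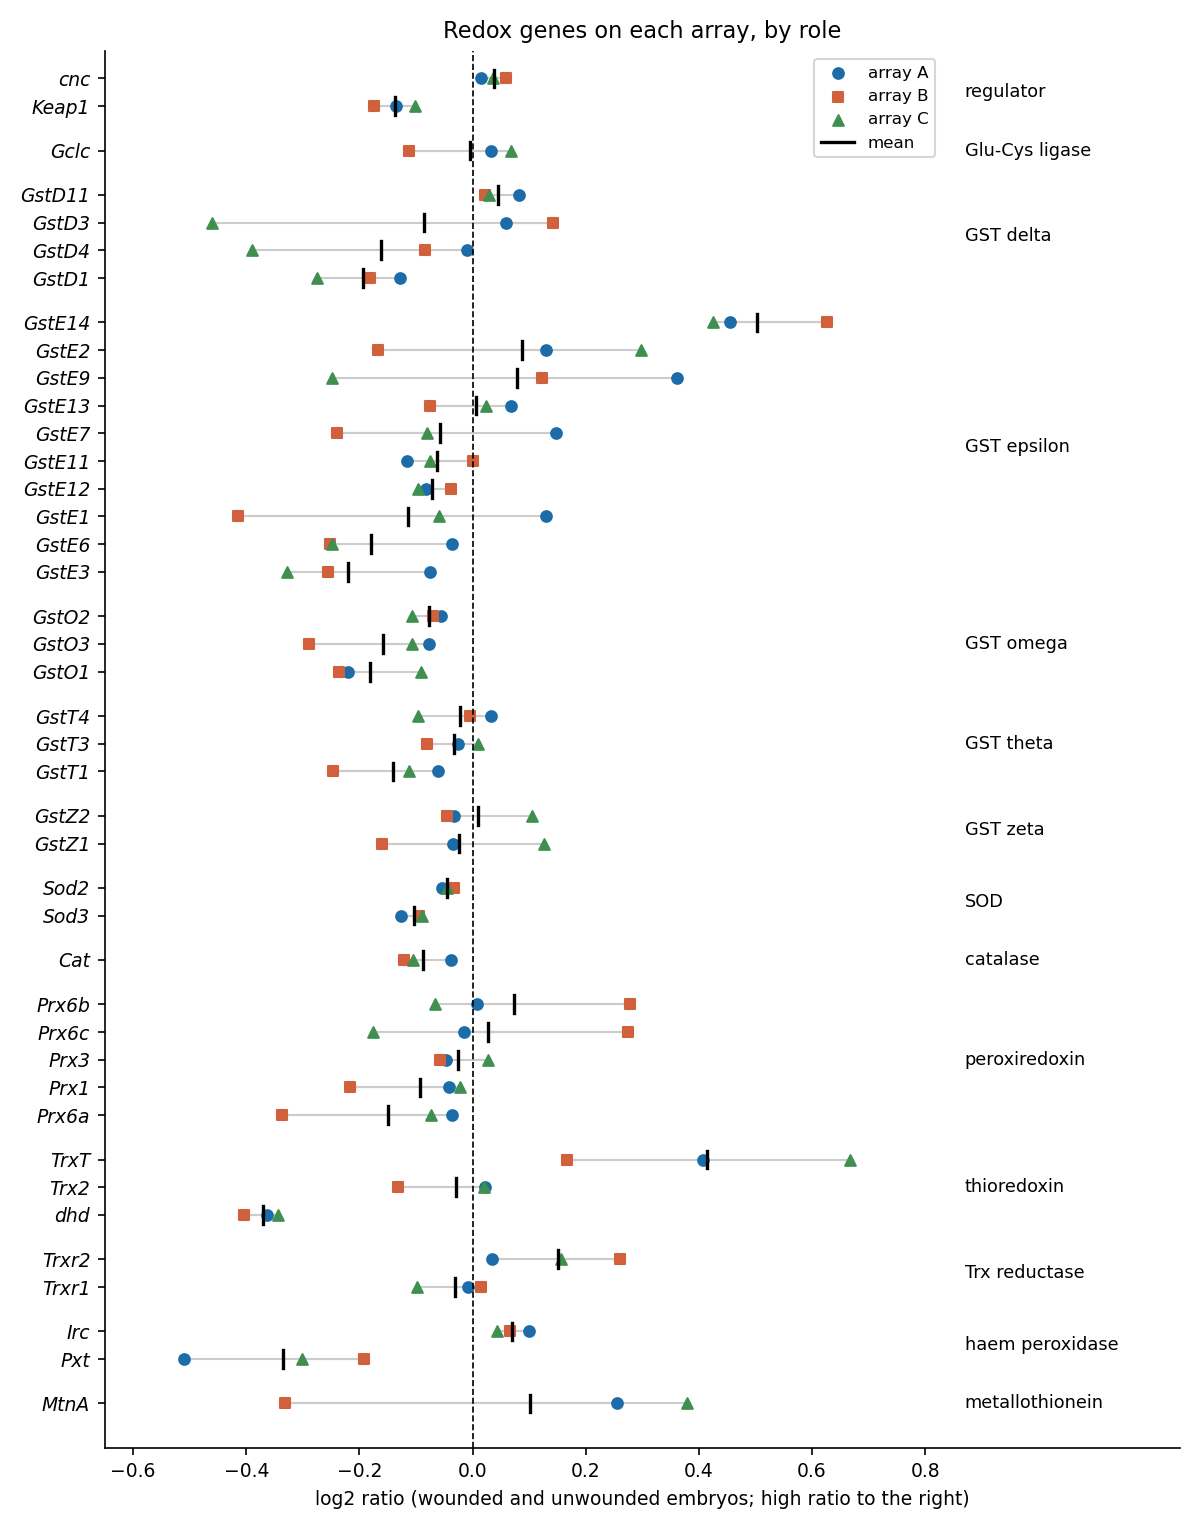
Log2 ratio (horizontal axis) of the 41 tested redox genes, grouped by role; circles, squares and triangles are arrays A, B and C and the black bar is their mean. *GstE14* and *TrxT* stand to the right of 0 on every array and *dhd* and *Pxt* to the left, while most other genes lie within 0.1 of 0 or scatter across it.

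The median of the 41 gene means was −0.04, beside −1.7e-04 over all genes, and 13 members (31.7%) were above 0, beside 49.9% of all genes. On arrays A, B and C the members' medians were −0.03, −0.08 and −0.08, with 17, 12 and 15 members above 0. The mean lay within 0.1 of 0 for 24 members (58.5%, beside 60.4% of all genes), and 4 (9.76%, beside 7.04%) reached 0.3 in size. The median SD over arrays was 0.096 for members and 0.10 for all genes. Signs were the same on 3 arrays for 23 members (56.1%, beside 41.8% of all genes), of which 17 were below 0 (41.5%, beside 21.2%) and 6 above 0 (14.6%, beside 20.7%). The 95% interval of limma held 0 for 32 members, and for 24 it lay within 0.3 of 0 on both sides. The members share arrays and in part clone libraries. Across the 41 members, Pearson r between arrays was 0.48 for A and B, 0.61 for A and C and 0.30 for B and C. Values over all genes were close, at 0.36, 0.50 and 0.21. Without *GstE14*, *dhd*, *TrxT* and *Pxt*, the members of largest size, r was 0.13, 0.27 and −0.09. These 4 were picked by the size of their mean on the same arrays, which by itself lowers r. Genes of that size were not taken out of all genes, so these r values cannot be compared with those over all genes.

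**Figure D2:**
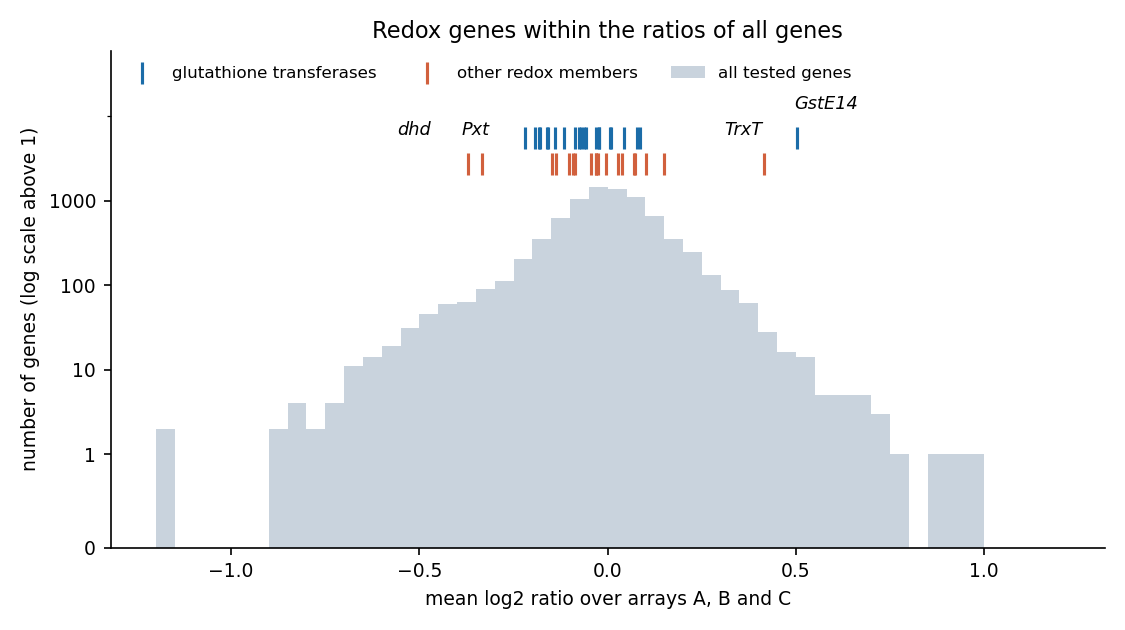
Number of genes (vertical axis, log scale above 1) by mean log2 ratio over 3 arrays in bins of 0.05, with genes below −1.2 in the end bin, and above it a tick for each glutathione transferase (upper row) and each other redox gene (lower row). Of the 41 ticks, 4 lie beyond 0.3 from 0: *dhd* (−0.37), *Pxt* (−0.34), *TrxT* (0.41) and *GstE14* (0.50).

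Of the regulators, *cnc* was at 0.02, 0.06 and 0.04 on arrays A, B and C, with a mean of 0.04 ± 0.02 (SD, n = 3; limma adjusted p = 0.756). *Keap1*, whose product targets Cnc for destruction, was at −0.14, −0.17 and −0.10, with a mean of −0.14 ± 0.04 (SD, n = 3; limma adjusted p = 0.263). The arrays put *cnc* slightly above 0 and *Keap1* below it each time, but neither ratio passed. The 95% interval, not adjusted over genes, ran from −0.09 to 0.17 for *cnc* and from −0.27 to −0.0033 for *Keap1*. *GstD1*, the transferase most used as a reporter of Cnc activity, was at −0.13, −0.18 and −0.27. Its mean of −0.19 ± 0.07 (SD, n = 3; limma adjusted p = 0.165) likewise did not pass. The interval of *GstD1* ran from −0.34 to −0.05. With clone libraries centred its mean was −0.27 and did not pass either (limma adjusted p = 0.0941).

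Glutathione is made in its first and limiting step by glutamate-cysteine ligase. Its catalytic subunit gene *Gclc* was at 0.03, −0.11 and 0.07 on arrays A, B and C, on both sides of 0. The mean was −0.0040 ± 0.10 (SD, n = 3; limma adjusted p = 0.982) with an interval from −0.16 to 0.15. The modifier subunit gene *Gclm* had no value on array B and was not tested. It was at −0.02 on array A and −0.11 on array C.

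Glutathione transferases gave 22 tested genes of 35, of which 6 had a mean above 0, with a median of −0.07. The mean of *GstE14* was far from those of the other 9 epsilon genes, which ran from −0.22 (*GstE3*) to 0.09 (*GstE2*). It exceeded their median by 0.39, 0.79 and 0.51 on arrays A, B and C. None of these 9 passed in limma, with 2 of them at an unadjusted p under 0.05. *GstE3* was at −0.08, −0.25 and −0.33, a mean of −0.22 ± 0.13 (SD, n = 3; limma adjusted p = 0.178). *GstE6* was at −0.04, −0.25 and −0.25, a mean of −0.18 ± 0.12 (SD, n = 3; limma adjusted p = 0.257 over probes). Both were below 0 on every array. *GstE11*, *GstE12* and *GstE13* had means between −0.07 and 0.0055.

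Other epsilon genes differed between arrays more than from 0. *GstE9* was at 0.36, 0.12 and −0.25 on arrays A, B and C, *GstE1* at 0.13, −0.42 and −0.06, *GstE2* at 0.13, −0.17 and 0.30, and *GstE7* at 0.15, −0.24 and −0.08. Their SDs ran from 0.19 to 0.31, against the median of 0.10 over all genes. Of the 10 neighbouring genes of the epsilon cluster, which stand side by side on the chromosome, 6 were tested. On array A 2 of the 6 were below 0, and on arrays B and C 5 of 6 each. *GstE14* is not part of that cluster, and neither are *GstE11*, *GstE12* and *GstE13*.

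The delta cluster holds 10 neighbouring genes, of which *GstD1*, *GstD3* and *GstD4* were tested. *GstD3* was at 0.06, 0.14 and −0.46 on arrays A, B and C and *GstD4* at −0.01, −0.08 and −0.39. All 3 genes had their lowest value on array C. Without array C the mean of *GstD3* was 0.10 and that of *GstD4* was −0.05. *GstD11*, the delta gene tested outside the cluster, was at 0.08, 0.02 and 0.03. Means were −0.19 for *GstD1*, −0.16 for *GstD4*, −0.09 for *GstD3* and 0.04 for *GstD11*, and none passed. Genes of each cluster are close copies, so cDNA probes of one may bind transcripts of another, and their ratios are uncertain as values of single genes.

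**Figure D3:**
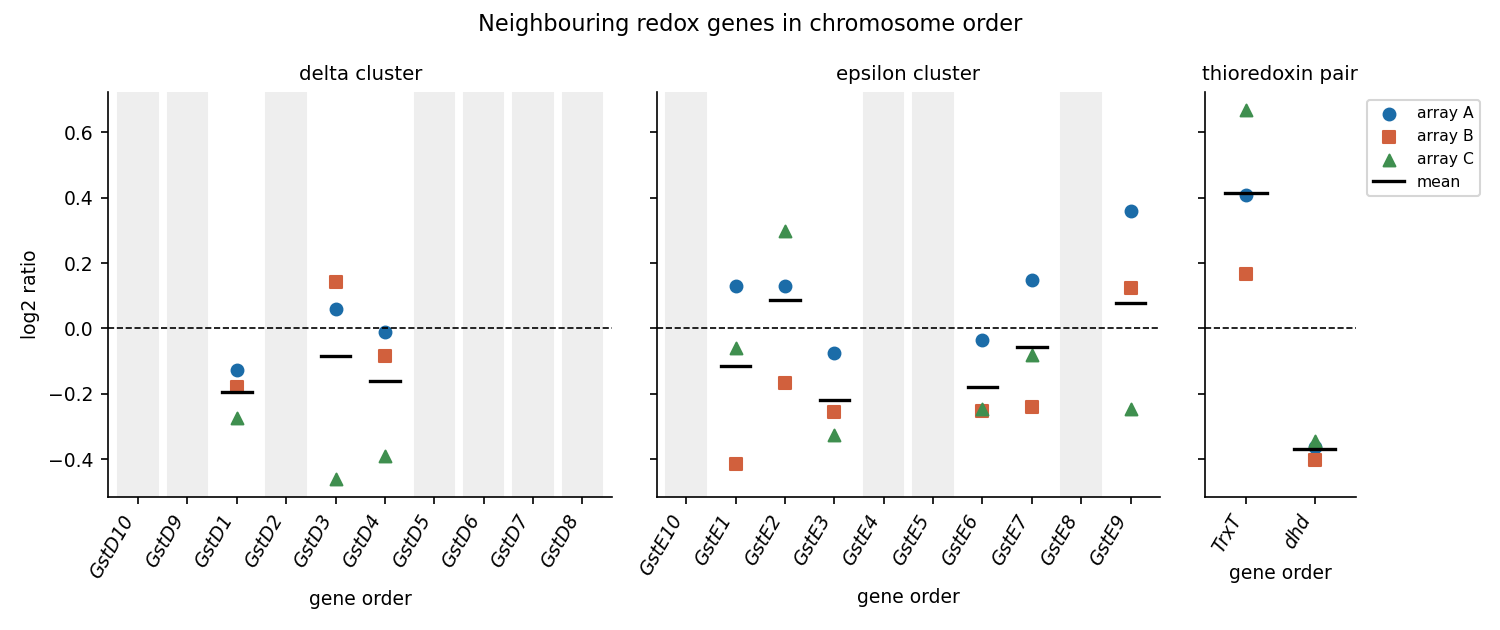
Log2 ratio (vertical axis) of neighbouring redox genes in chromosome order for the delta cluster, the epsilon cluster and the thioredoxin pair; symbols are arrays A, B and C, black bars their mean, and grey bands mark genes not analysed here. The 3 tested delta genes have their lowest value on array C, and *TrxT* and *dhd*, which are neighbours, lie on opposite sides of 0 on every array.

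The omega class has thiol transferase activity. *GstO1* was at −0.22, −0.24 and −0.09 on arrays A, B and C, *GstO3* at −0.08, −0.29 and −0.11 and *GstO2* at −0.06, −0.07 and −0.11. All 9 values were below 0, yet the means of −0.18, −0.16 and −0.08 did not pass (limma adjusted p = 0.188, 0.280 and 0.503). The omega-class gene *se*, which acts in eye pigment synthesis and is not a member by its symbol, lay on the other side of 0, at 0.43, 0.35 and 0.02, and did not pass either. In the theta class *GstT1* had −0.06, −0.25 and −0.11, a mean of −0.14 ± 0.10 (SD, n = 3; limma adjusted p = 0.308). *GstT3* and *GstT4* had means of −0.03 and −0.02. The zeta class acts in tyrosine breakdown. *GstZ1* was at −0.04, −0.16 and 0.13 and its neighbour *GstZ2* at −0.03, −0.05 and 0.11, both above 0 on array C alone, with means of −0.02 and 0.0094.

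Among enzymes that act on superoxide and peroxide directly, *Sod2*, the mitochondrial superoxide dismutase gene, was at −0.05, −0.03 and −0.05 on arrays A, B and C. Its mean was −0.04 ± 0.01 (SD, n = 3; limma adjusted p = 0.703), with an interval of the ratio from 0.886 to 1.06. *Cat*, the catalase gene, was at −0.04, −0.12 and −0.10, a mean of −0.09 ± 0.04 (SD, n = 3; limma adjusted p = 0.454), with an interval from 0.857 to 1.03. Neither passed, and on every array both lay slightly below 0. *Sod3*, the extracellular superoxide dismutase gene, depended on the probe. GH23708 was at −0.44, −0.27 and −0.18 (limma adjusted p = 0.110) and GH07275 at 0.19, 0.08 and 0.0058 (limma adjusted p = 0.493), so the probes lay on opposite sides of 0 on every array. Their gene mean of −0.10 ± 0.02 (SD, n = 3) therefore stands for neither.

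Peroxiredoxin genes had means from −0.15 (*Prx6a*) to 0.07 (*Prx6b*), and 0 of 5 passed in limma, with 0 at an unadjusted p under 0.05. *Prx6b* was at 0.0086, 0.28 and −0.07 on arrays A, B and C, and *Prx6c* at −0.01, 0.28 and −0.18. Both were highest on array B by a wide margin. The probe RE05501, assigned to *Prx6b* and *CG12896* together and not counted, was at 0.01, 0.26 and −0.14. These genes are close copies that the probes may not separate. *Prx6a*, at −0.04, −0.34 and −0.07, was lowest on array B. *Prx3*, the mitochondrial peroxiredoxin gene, was at −0.05, −0.06 and 0.03, and *Prx1* at −0.04, −0.22 and −0.02.

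The 3 thioredoxin genes spread the widest. *TrxT*, the thioredoxin of the testis, was at 0.41 (A), 0.17 (B) and 0.67 (C), above 0 each time. Its mean of 0.41 ± 0.25 (SD, n = 3) was a ratio of 1.33, exceeded by 72 of 8247 genes, and it did not pass (limma adjusted p = 0.111). *Trx2*, the general cytosolic thioredoxin, was at 0.02, −0.13 and 0.02, with a mean of −0.03 ± 0.09 (SD, n = 3; limma adjusted p = 0.835). *TrxT* and *dhd* are neighbours on the chromosome, and *TrxT* exceeded *dhd* by 0.77, 0.57 and 1.01 on arrays A, B and C. Their probes come from different clone libraries, GH for *TrxT* and LD for *dhd*. GH probes held 63 low and 11 high calls and a median of −0.03, and LD probes 22 low and 5 high calls and a median of −0.0092.

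Thioredoxin reductase genes were near 0 or slightly above. *Trxr2* was at 0.03, 0.26 and 0.16 on arrays A, B and C, a mean of 0.15 ± 0.11 (SD, n = 3; limma adjusted p = 0.299). *Trxr1*, the main reductase gene, was at −0.0078, 0.02 and −0.10 over its pair of probes, a mean of −0.03 ± 0.06 (SD, n = 3; limma adjusted p = 0.818). Neither passed.

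Of the haem peroxidases, *Pxt*, whose product acts like a cyclooxygenase in the follicles of the ovary, was at −0.51, −0.19 and −0.30 on arrays A, B and C. Its mean of −0.34 ± 0.16 (SD, n = 3) was a ratio of 0.793, with 285 genes lower, and it did not pass (limma adjusted p = 0.106 over probes). *Irc*, the immune-regulated catalase gene, was at 0.10, 0.07 and 0.04, a mean of 0.07 ± 0.03 (SD, n = 3; limma adjusted p = 0.553). With array weights, *TrxT* and *Pxt* passed in limma as well (adjusted p = 0.0489 and 0.0459), which made 4 of 41 members past the threshold, where 4.79% of all genes passed in that fit, beside 1.96% without weights.

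*MtnA*, a metallothionein gene that buffers copper, had the widest spread of the members. It was at 0.26, −0.33 and 0.38 on arrays A, B and C, a mean of 0.10 ± 0.38 (SD, n = 3; limma adjusted p = 0.750), and its sign turned with the array. The same signs were seen for *Gclc*, *GstE2*, *GstE13* and *Trx2*, 5 members in all (12.2%, beside 905 of the 8247 genes tested). The 8 epidermis and cuticle genes listed had medians of 0.42, −0.19 and 0.38 on the same arrays. Their part in the ratio of *MtnA* was not tested.

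A pair of probes was available for 4 members. The *GstD1* probes RH09431 and RH47312 differed by 0.01 on average over the arrays, closer than 99.3% of the 1108 genes with a pair of tested probes, whose median difference was 0.12. Both are clones of the RH library. The *Prx6c* probes differed by 0.04 and followed each other across arrays, and those of *Trxr1* differed by 0.08. The *Sod3* probes, which also share a library (GH), differed by 0.39, more than in 89.1% of such genes. Over all 1108 genes, means of the pair had the same sign in 63.7%.

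**Figure D4:**
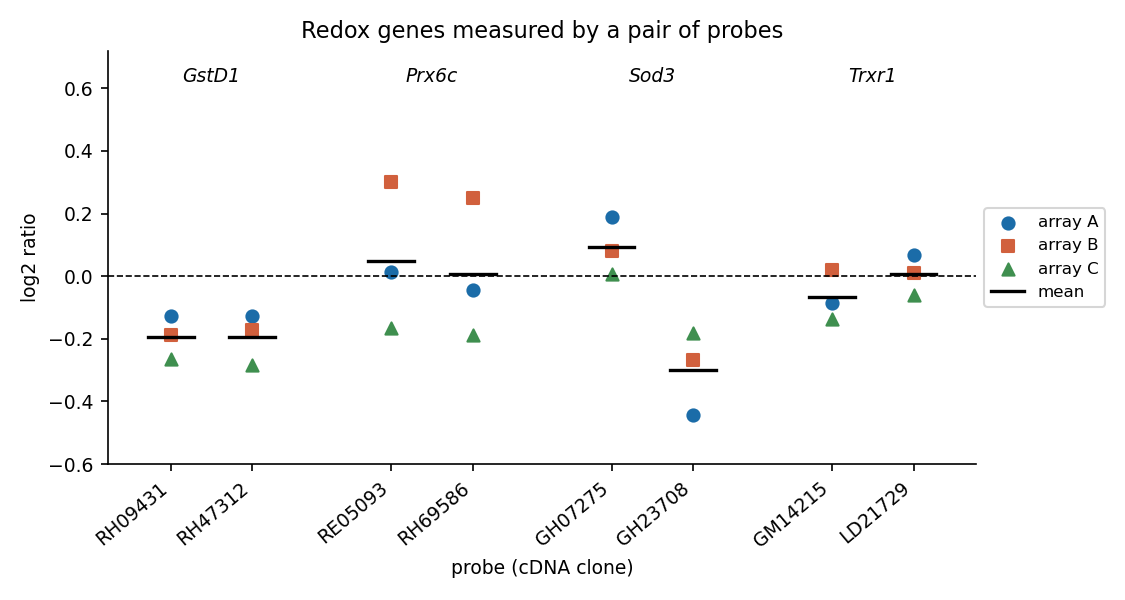
Log2 ratio (vertical axis) by probe for the 4 redox genes with a pair of tested probes; symbols are arrays A, B and C and black bars their mean. Probes of *GstD1* overlap almost exactly, *Prx6c* probes are both highest on array B, and *Sod3* probes lie on opposite sides of 0.

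The 5 lists of other genes of the pathway gave 1 call. Over all 8247 tested genes, 1.96% passed and 18.4% had an unadjusted p under 0.05 in limma. Of 8 tested genes of glutathione supply and glutaredoxins, 0 passed in limma and 1 had an unadjusted p under 0.05 (median 0.02). The genes of smallest p were *se* at 0.27 (limma adjusted p = 0.203) and the microsomal transferase gene *Mgstl* at −0.20 (limma adjusted p = 0.297). Of 5 genes that supply NADPH, 0 passed and 1 had an unadjusted p under 0.05 (median −0.02), with *Idh* at −0.15 and *Men*, the malic enzyme gene, at −0.12. Of 7 regulators of the oxidative stress and metal response, 0 passed and 1 had an unadjusted p under 0.05 (median 0.03), with the sestrin gene *Sesn* at 0.33, 0.29 and 0.16 on arrays A, B and C, a mean of 0.26 ± 0.09 (SD, n = 3; limma adjusted p = 0.105), and the mitophagy kinase gene *Pink1* at 0.10. Of 9 other redox and iron proteins, 0 passed and 0 had an unadjusted p under 0.05 (median −0.03), with *ry*, the xanthine dehydrogenase gene, and *ERp60* both at −0.11. Of 18 cytochrome P450 and other detoxification genes, 1 had a low and 0 a high ratio (median −0.04, with 8 means above 0). It was *Cyp6g1*, a P450 gene known for insecticide resistance, at −0.43, −0.51 and −0.47 (limma adjusted p = 0.0359). An unadjusted p under 0.05 was found for 4. Besides *Cyp6g1* these were *Ugt35B1* at −0.58 (limma adjusted p = 0.0538), *Cyp6w1* at −0.19 and *Cyp4e2* at −0.18.

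Listed markers of cell types lay on both sides of 0. Without levels or a stated stage, whether the embryos expressed these markers could not be checked. The counts below stand beside 1.96% of all tested genes that passed and 18.4% with an unadjusted p under 0.05. Of 11 haemocyte markers, 0 passed in limma and 1 had an unadjusted p under 0.05 (median 4.5e-04). *PPO1* was at −0.14 and *eater* at 0.20. Of 4 fat body markers, *Fbp2* had a low ratio of −0.48 (limma adjusted p = 0.0359), while 3 had a mean above 0 and the median was 0.11. An unadjusted p under 0.05 was found for 2, *Fbp2* and *Lsp2*, which lay on the other side at 0.25 (limma adjusted p = 0.135). Of 6 midgut markers, 0 passed and 3 had an unadjusted p under 0.05 (median 0.0066), with *Amy-d* at 0.46 and *Jon99Ci* at −0.29. Among the 8 epidermis and cuticle genes, *Ccp84Aa* had a high ratio of 0.46 (limma adjusted p = 0.0436). The median was 0.23 with 7 means above 0, but on array B alone it was −0.19. An unadjusted p under 0.05 was found for 2, *Ccp84Aa* and *Ddc*, which lay on the other side at −0.24 (limma adjusted p = 0.126).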

How the data were processed

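Total RNA of wounded and unwounded embryos, extracted with Trizol and cleaned with RNeasy per the labels, was labelled through amino-allyl nucleotides and compared on 3 two-colour cDNA arrays. All values in the table the authors deposited, of 12144 rows, were below 0. Their medians were −1.001, −1.01 and −0.997 on arrays A, B and C and the highest was −0.01. A deposited value was taken as a linear ratio with a minus sign, normalized by the authors to about 1, and its log2 was used. That scale and centring come from the values alone. The labels do not state the scanner, background correction, normalization or direction. Without spot intensities, dim probes could not be filtered.

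With 160 control spots left out, the 11887 of 11984 probes with a full set of values were fitted in limma 3.58.1 (R 4.3.3) with an intercept and moderated variances, and p was adjusted by Benjamini-Hochberg over all of them. The same was done for 8247 gene means. Symbols from the platform annotation were updated by Entrez identifier (9746 of 9917 probes with 1 symbol matched). Neighbours were read from the Release 6 plus ISO1 MT gene table. No pair of arrays shared more than 45 identical values. An exact sign-flip test of 3 arrays cannot go below p = 0.25. P-values cover the spread among the arrays, possibly technical, and 3 arrays limit the precision. The fit was tested on simulated data. Members and lists were chosen with earlier results of these data known. Named are the members past the threshold, the highest and lowest gene means, the main enzymes of each role and, of each list, genes past the threshold or else the 2 of smallest p.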

Additional observations from a re-analysis of the deposited data

Results flagged for a closer look

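Control spots that carry plant genes, which the comparison does not use, had a median log2 ratio of −0.23 over 119 spots, with 100 below 0. The medians were −0.35, −0.22 and −0.16 on arrays A, B and C. Groups of 3 arrays are too small for a test of single arrays that stand apart.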

How the results depend on the processing

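Against 2 calls over all probes, 1 was left with centred arrays, with control spots kept, with probes of 1 symbol alone and with values on at least 2 arrays, *GstE14* in each, where 164, 129, 91 and 159 of all probes passed, against 184. On the linear ratio and with clone libraries centred, 0 were called over probes and 0 over gene means, as for all 11887 probes and 8247 genes tested (limma, smallest adjusted p of a member 0.0619 and 0.0631 over probes, with 9 and 10 member probes at an unadjusted p under 0.05). With array weights 4 passed over gene means, and the calls over all genes were 395, against 162 without weights. Leaving out 1 array gave 0 to 0 calls over probes and 0 to 0 over gene means (limma, 7 to 9 member probes at an unadjusted p under 0.05), where 0 to 1 of all probes and 0 of all genes passed. The causes were not tested, and leaving out 1 array also makes the number of arrays smaller. The median of the members stayed below 0 under every alternative run. Of 41 members, 25 kept their sign under every alternative run. With all arrays in the fit, *Gclc* turned to 0.018 with array weights and 0.0012 with quantile normalization, *GstE7* to 0.010 and *Prx6c* to −0.013 with array weights, *GstT4* to 0.0078 and *Prx6c* to −0.0087 with libraries centred, *Sod3* to 0.092 on GH07275 and *Trxr1* to 0.0067 on LD21729. With 1 array left out, the members whose sign turned ran from −0.040 to 0.050 for *Gclc*, −0.20 to 0.10 for *GstD3*, −0.24 to 0.035 for *GstE1*, −0.026 to 0.046 for *GstE13*, −0.018 to 0.21 for *GstE2*, −0.16 to 0.034 for *GstE7*, −0.063 to 0.24 for *GstE9*, −0.051 to 0.014 for *GstT4*, −0.098 to 0.045 for *GstZ1*, −0.039 to 0.037 for *GstZ2*, −0.038 to 0.32 for *MtnA*, −0.029 to 0.14 for *Prx6b*, −0.096 to 0.13 for *Prx6c*, −0.056 to 0.021 for *Trx2* and −0.053 to 0.0036 for *Trxr1*. Each array compares wounded with unwounded RNA directly, so the test on its ratios already uses that pairing.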

Other observations

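Probes assigned to several genes that include a redox gene were kept out of the comparison, and 5 had values. The probe shared by *GstS1* and *CG13088* was represented by 2 clones, AT13284 at −0.03, −0.15 and −0.01 and LD21131 at −0.02, −0.16 and 0.09 on arrays A, B and C. GM08326, shared by *GstE9* and *GstE8*, was at −0.0014, −0.16 and −0.28. AT07490, shared by *Cat* and other genes, was at 0.08, −0.08 and −0.08. None of these passed in limma (adjusted p from 0.356 to 0.853).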
